A study of Homo sapiens with 6 samples.

Results

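The genes described here are the enzymes that place or remove methyl groups on histone lysines and on arginines. They were chosen by symbol from the 26410 rows of the count table: names that begin with KDM, KMT, SETD, NSD, PRMT, EHMT, SUV39H or SUV420H and a number, together with ASH1L, DOT1L, PHF8, WHSC1 and WHSC1L1. The rule found 55 genes, after 3 antisense transcripts had been left out. RNA came from Kasumi-1 cells, an established human line of acute myeloid leukaemia with a RUNX1::RUNX1T1 fusion. Cells received a hairpin against PHF19 (shPHF19, 3 libraries) or a scrambled hairpin (control, 3 libraries). The PHF19 hairpin was delivered with a lentiviral vector that carries GFP and puromycin resistance, and the protocol given for both groups has puromycin at 2 µg/ml from 48 h after delivery, for at least 24 h. Control samples have WT as their treatment label, although their protocol names a scrambled hairpin. The labels name 1 cell line, do not say how many hairpin sequences or clones were used, and do not call the replicates separate cultures. The p-values therefore set the difference between groups only against the spread of these libraries, which may be technical.

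The libraries held 14229878 to 16615143 counts. PHF19, the target of the hairpin and a Polycomb-like subunit of the H3K27 methyltransferase complex PRC2, stood at 168, 199 and 189 CPM (the count relative to the TMM-scaled library total) in the control libraries and at 41.1, 36.9 and 33.0 CPM in the shPHF19 libraries. The groups did not overlap (log2 fold change -2.32, SE 0.0975; edgeR quasi-likelihood test, adjusted p = 3.55e-25). All 7 listed markers of myeloid blasts passed the filter on low counts, among them KIT at 2760 to 3540 CPM and RUNX1T1, the fusion partner, at 140 to 197 CPM. The summed level of these 7 markers was 7900 to 8200 CPM in control and 12600 to 13400 CPM in shPHF19 libraries. In absolute CPM, MPO had by far the widest range of the 7, from 4000 to 9090 CPM over the 6 libraries, so the sums differed mostly through MPO. Relative to their lowest values, CD34 (345 to 845 CPM) and CD33 ranged more widely than MPO. The summed fibroblast markers stayed at or below 2.34 CPM. The surface marker EPCAM of epithelial cells was present at 51.9 to 94.5 CPM while KRT8, KRT18 and CDH1 stayed at or below 1.94 CPM. The summed T cell list, nearly all of it CD3D, was 34.6 to 40.7 CPM in control and 48.9 to 52.8 CPM in shPHF19 libraries. The part of these marker levels in the results was not tested.

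Methylation of a histone lysine can mark active or silent chromatin, depending on the residue. On histone H3, methyl groups at lysine 4 (H3K4), lysine 36 and lysine 79 are found at active genes, whereas those at lysine 9 and lysine 27 are found at silent ones. PRC2 writes the H3K27 mark, and KDM6A and KDM6B remove it. Lysine methyl groups are written by SET domain enzymes or by DOT1L and removed by the flavin enzymes KDM1A and KDM1B or by the iron-dependent JmjC enzymes. Arginine methyltransferases (PRMTs) modify histones, splicing factors and many other proteins. All of these writers take the methyl group from S-adenosylmethionine. Several of the genes are known in myeloid leukaemia, as with KMT2A, which is rearranged there, and KDM1A, DOT1L and PRMT5, which have been drug targets.

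Of the 55 genes, 51 passed the filter on low counts and were tested. PRMT8 and KDM4E had no count in any library. EHMT1-IT1, a noncoding transcript named after EHMT1, had 0 to 2 counts per library and was not tested either. KDM5D, a Y-linked gene, did not pass, and no value is given for it. In these bulk libraries fewer cells of one kind and less RNA per cell cannot be told apart. Of the 51 tested genes, 16 were higher and 13 lower in shPHF19 cells and 22 did not pass the test (edgeR quasi-likelihood test, adjusted p under 0.05). That is 56.9% called, where 60.2% of all 13014 genes tested were called, 29.4% higher and 30.9% lower, so the count does not set the genes apart. The residue classes hold at most 8 tested genes each, and no class was tested as a set. Their shares called ran from 33.3% (H3K36 demethylases, H4K20 methyltransferases) to 100% (H3K27 demethylases, DOT1L), beside the same 60.2%. The median log2 fold change of the 51 genes was 0.08, against -0.03 over all genes tested. The changes were moderate in size: 4 genes (PRMT5 and PRMT1 higher, KDM6B and KDM7A lower) changed at least 2-fold, while 16.6% of all genes did so. The median absolute log2 fold change was 0.33 against 0.45. The median level of the 51 genes was also higher, at 87.0 CPM against 28.3 CPM over all genes tested. The part of level in the size of the changes was not tested.

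For 30 of the 51 genes the control and shPHF19 values were without overlap (17 higher, 13 lower), where this held for 63.5% of all genes tested. Within a group the coefficient of variation was 8.92% in control and 7.53% in shPHF19 libraries at the median, and it was largest for KDM4D, which had few counts. The split of calls moved with the scaling. Under scaling by library totals alone, 9 of the tested genes were higher and 20 lower, and the median of all genes tested moved on the log2 scale from -0.03 to -0.24. With the trend on gene length removed, 23 were higher and 13 lower. Of the 29 called genes, 20 kept call and direction in all 15 alternatives, 9 of them higher (PRMT1, PRMT3, PRMT5, PRMT7, DOT1L, SUV39H1, EHMT1, EHMT2 and KDM1A) and 11 lower (KDM6A, KDM6B, KDM7A, KDM3A, KDM4C, KDM1B, KMT2C, SETD2, WHSC1L1, SUV420H1 and SETD7).

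**Figure D1:**
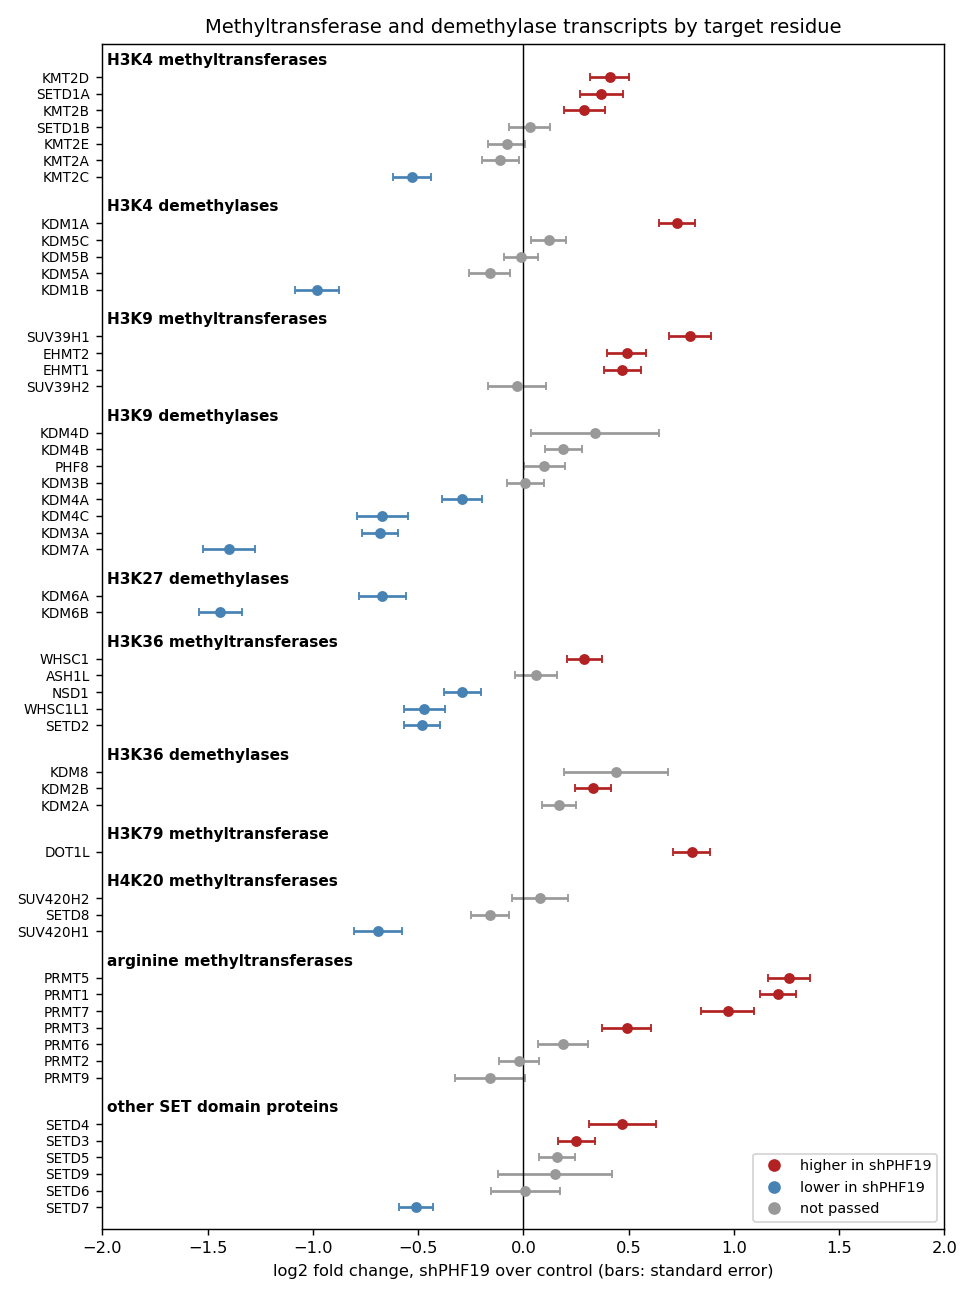
Log2 fold change of each tested gene (x axis, shPHF19 over control; bars are standard errors of the edgeR fit), grouped by the residue the enzyme acts on. Both H3K27 demethylases lie to the left at -0.67 and -1.44, and PRMT5, PRMT1 and PRMT7 lie to the right at 1.26, 1.21 and 0.97.

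Both H3K27 demethylases fell. KDM6B (JMJD3) had 85.4, 97.9 and 107 CPM in control and 37.2, 35.6 and 34.2 CPM in shPHF19 libraries. Each shPHF19 value was below the lowest control value, and the gene was 2.71-fold lower (log2 fold change -1.44, SE 0.102; edgeR adjusted p = 5.88e-17), the largest fall of the 51. KDM6A (UTX), the X-linked paralog and a subunit of the KMT2C and KMT2D complexes, had 64.1, 58.0 and 51.5 CPM in control and 30.1, 38.6 and 40.1 CPM in shPHF19 libraries. The groups did not overlap here either (1.59-fold lower, log2 fold change -0.67, SE 0.112; edgeR adjusted p = 1.21e-06). KDM6B lies on the plus strand of chromosome 17 (7839904 to 7854796) and KDM6A on the plus strand of chromosome X (44873177 to 45112602; GRCh38, GENCODE 29). The PRC2 catalytic subunits, which the symbol rule does not cover, changed in different directions, with EZH2 at 107 ± 11.4 CPM in control and 153 ± 9.98 CPM in shPHF19 libraries (log2 fold change 0.52) and EZH1 at 78.5 ± 3.84 and 55.2 ± 1.61 CPM (-0.51; SD, n = 3).

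KDM7A, a JmjC enzyme for H3K9 and H3K27, was the other gene that fell at least 2-fold. Its values were 46.0, 39.0 and 46.6 CPM in control and 17.1, 15.2 and 17.7 CPM in shPHF19 libraries. The highest shPHF19 value was below the lowest control value by a wide margin (2.63-fold lower, log2 fold change -1.40, SE 0.123; edgeR adjusted p = 8.61e-14). KDM7A lies on the minus strand of chromosome 7 (140084746 to 140177035).

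DNA before an annotated transcript start of 6 of these genes is shown because PRC2 and its Polycomb-like subunits, PHF19 among them, are known to sit at DNA rich in CpG, and CpG content is a feature the symbol rule did not use. The sequences are from RefSeq (GRCh38.p14), 5′ to 3′ on the gene's strand, taken from the 250 bases before an annotated transcript start and limited to the longest stretch that no GENCODE 29 exon covers. CpG dinucleotides are in capitals. The PRMT1 stretch lies within the gene as GENCODE 29 annotates it, before a start that RefSeq places further inside. RefSeq gives KDM6B a pair of windows, and the one shown, with more CpGs, lies upstream of the GENCODE gene start. The other (chr17:7839667-7839916), at that start, holds 1 CpG in its 250 bases. KDM6A, KDM6B, KDM7A and KDM1B fell, and KDM1A and PRMT1 rose.
KDM6A (chrX:44872938-44873176, plus strand): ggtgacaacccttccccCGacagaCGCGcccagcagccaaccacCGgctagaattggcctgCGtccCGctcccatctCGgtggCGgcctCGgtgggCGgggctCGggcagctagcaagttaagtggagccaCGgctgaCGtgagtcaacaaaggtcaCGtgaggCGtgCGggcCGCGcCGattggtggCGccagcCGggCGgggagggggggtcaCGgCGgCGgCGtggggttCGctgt
KDM6B (chr17:7833967-7834216, plus strand): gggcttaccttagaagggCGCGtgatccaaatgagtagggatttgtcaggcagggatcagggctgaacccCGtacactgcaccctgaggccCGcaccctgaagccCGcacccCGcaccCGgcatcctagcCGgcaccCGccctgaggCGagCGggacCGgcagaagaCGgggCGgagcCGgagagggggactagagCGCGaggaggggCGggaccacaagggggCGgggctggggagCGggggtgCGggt
KDM7A (chr7:140177036-140177183, minus strand): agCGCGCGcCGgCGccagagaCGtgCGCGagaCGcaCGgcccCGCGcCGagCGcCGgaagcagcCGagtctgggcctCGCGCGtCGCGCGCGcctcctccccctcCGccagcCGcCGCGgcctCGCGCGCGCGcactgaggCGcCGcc
KDM1B (chr6:18155172-18155328, plus strand): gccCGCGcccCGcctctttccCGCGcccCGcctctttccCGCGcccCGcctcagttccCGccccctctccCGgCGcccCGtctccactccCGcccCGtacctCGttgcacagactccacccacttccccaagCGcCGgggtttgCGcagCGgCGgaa
KDM1A (chr1:23019218-23019442, plus strand): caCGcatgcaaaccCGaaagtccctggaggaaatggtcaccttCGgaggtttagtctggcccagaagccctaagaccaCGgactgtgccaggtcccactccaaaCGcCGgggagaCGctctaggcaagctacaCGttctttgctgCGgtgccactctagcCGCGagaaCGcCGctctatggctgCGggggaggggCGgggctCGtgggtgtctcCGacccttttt
PRMT1 (chr19:49677021-49677151, plus strand): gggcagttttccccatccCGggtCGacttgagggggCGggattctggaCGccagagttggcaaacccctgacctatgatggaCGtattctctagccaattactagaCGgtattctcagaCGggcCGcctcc

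These stretches hold 27 CpGs in 239 bases (KDM6A), 21 in 250 (KDM6B), 34 in 148 (KDM7A), 21 in 157 (KDM1B), 17 in 225 (KDM1A) and 8 in 131 (PRMT1). The 6 genes are only a part of those called and their stretches differ in length, so they do not compare genes that fell with genes that rose. Genes not shown include WHSC1, which rose, and KMT2C, which fell, with 50 and 48 CpGs in their windows of 250 bases. RefSeq windows of 250 bases were at hand for 50 of the 55 genes (71 windows), and not for DOT1L, SETD1B, WHSC1L1, KDM4E and EHMT1-IT1. The median window of these genes held 23 CpGs, against 11 over all 35116 windows in the table. Taking for each gene its window with the most CpGs, the median was 29 for the 15 matched genes that rose, 25.5 for the 12 that fell and 25 for the 21 that did not pass. The 3 medians lie close together, and the ranges overlap (14 to 50, 16 to 50 and 15 to 40). The GC box GGGCGG, counted on both strands, was in 77.5% of the 71 windows and in 42.6% of all windows. The median GC content was also higher, at 68.4% in these windows and 58.0% in all windows, and its part in the motif shares was not tested. Some of the 71 windows overlap, so a single site can be counted more than once. The CCAAT box, counted on both strands, was in 32.4% and 32.0%, and the E-box CACGTG, the same on both strands, in 11.3% and 6.34%. The ATF4 and C/EBP composite TGATGNAA, counted on both strands, was in none of the 71 and in 3.14% of all windows.

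Of 4 tested H3K9 methyltransferases, 3 rose and 1 did not pass (median log2 fold change 0.48). SUV39H1, which trimethylates H3K9 in heterochromatin, had 43.8, 51.2 and 49.0 CPM in control and 90.7, 79.6 and 78.2 CPM in shPHF19 libraries. The lowest shPHF19 value was above the highest control value (1.73-fold higher, log2 fold change 0.79, SE 0.099; edgeR adjusted p = 2.42e-09). EHMT1 (GLP), which dimethylates H3K9 in a complex with EHMT2, had 101, 96.7 and 95.1 CPM in control and 145, 133 and 126 CPM in shPHF19 libraries (log2 fold change 0.47, SE 0.0869; edgeR adjusted p = 8.57e-06). EHMT2 (G9a) had 81.5, 90.2 and 94.7 CPM in control and 132, 132 and 110 CPM in shPHF19 libraries. It too was without overlap between groups (log2 fold change 0.49, SE 0.0916; edgeR adjusted p = 9.08e-06). The SUV39H1 paralog SUV39H2 had 20.9 ± 2.83 and 20.4 ± 2.71 CPM (SD, n = 3; log2 fold change -0.03, SE 0.139), and its groups overlapped. SETDB1 and SETDB2, H3K9 methyltransferases that the rule does not cover, did not pass (log2 fold changes -0.20 and -0.21, edgeR adjusted p = 0.0601 and 0.105). SETDB1 had 77.3 ± 2.82 CPM in control and 67.3 ± 2.63 CPM in shPHF19 libraries (SD, n = 3), lower without overlap. SETDB1 was called lower in 4 alternatives and SETDB2 in 3, with edgeR adjusted p up to 0.197 and 0.546.

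Of 8 tested H3K9 demethylases, 4 fell and 4 did not pass (50.0% called, median log2 fold change -0.14). Beside KDM7A these were KDM3A, KDM4C and KDM4A. KDM3A (JMJD1A), which removes H3K9me1 and H3K9me2 and is known as a hypoxia-induced gene, had 244, 213 and 229 CPM in control and 132, 147 and 149 CPM in shPHF19 libraries (1.60-fold lower, log2 fold change -0.68, SE 0.0847; edgeR adjusted p = 1.98e-09). Its 3 shPHF19 values were all below the controls, while its paralog KDM3B had 167 ± 11.0 and 168 ± 16.8 CPM (SD, n = 3; log2 fold change 0.01, SE 0.0866). KDM3B was called lower on library totals alone (-0.20, edgeR adjusted p = 0.0406). The KDM4 enzymes act on H3K9 and H3K36. KDM4C fell from 34.3 ± 1.70 to 21.5 ± 1.45 CPM (SD, n = 3; -0.67, SE 0.121; edgeR adjusted p = 4.93e-06). KDM4A had 95.6 ± 9.35 and 78.3 ± 7.81 CPM (SD, n = 3), and its groups overlapped (-0.29, SE 0.0953; edgeR adjusted p = 0.00825). That call was lost without control replicate 3 (edgeR adjusted p = 0.0809) and also without shPHF19 replicate 3 (0.0528), in a range of 3.19e-05 to 0.0809 over the alternatives. KDM4B (0.19), KDM4D (0.34) and PHF8 (0.10) did not pass, PHF8 being called with the length trend removed (0.24, edgeR adjusted p = 0.0393). KDM4B was called with the trend on gene length removed (0.34, edgeR adjusted p = 0.00116) and in 4 further alternatives, in a range of 0.00116 to 0.85.

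**Figure D2:**
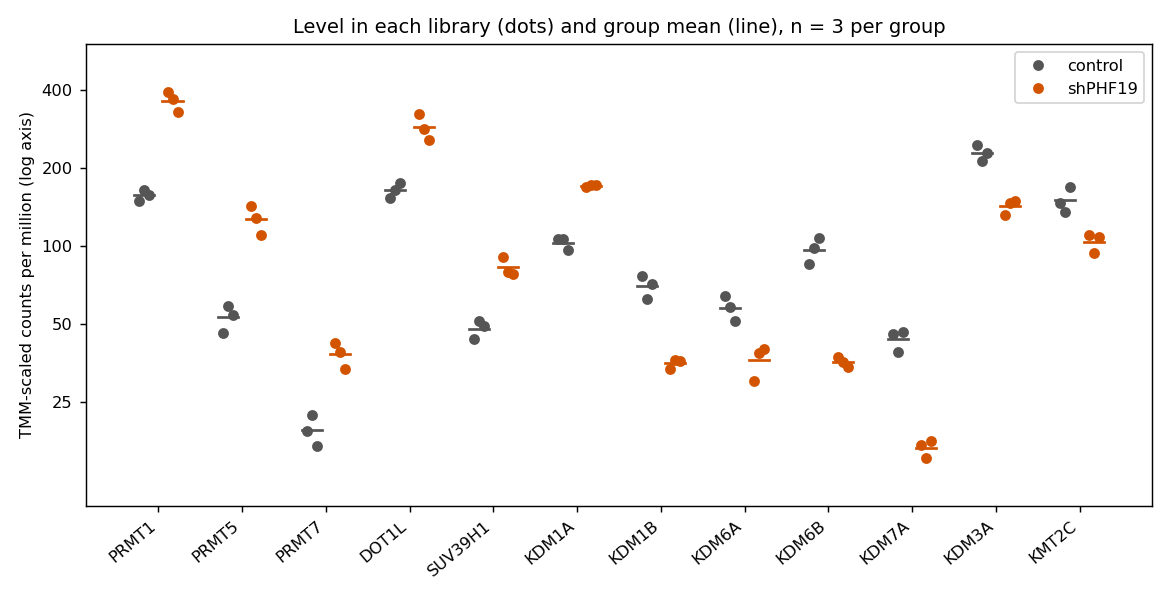
TMM-scaled CPM (y axis, log scale) of 12 genes in each of the 6 libraries, with dots for libraries and lines for group means (n = 3). In each of the 12 the control and shPHF19 dots are separate, with PRMT1, PRMT5, PRMT7, DOT1L, SUV39H1 and KDM1A higher and the other 6 lower in shPHF19 libraries.

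Both flavin-dependent H3K4 demethylases changed, in opposite directions. KDM1A (LSD1), which works in corepressor complexes, had 106, 106 and 96.8 CPM in control and 169, 171 and 172 CPM in shPHF19 libraries. The 3 shPHF19 values were nearly equal and all above control (1.66-fold higher, log2 fold change 0.73, SE 0.0844; edgeR adjusted p = 2.46e-10). KDM1B (LSD2) had 76.6, 62.5 and 71.6 CPM in control and 33.7, 36.5 and 36.2 CPM in shPHF19 libraries. Its groups were as clearly separate the other way (1.98-fold lower, log2 fold change -0.98, SE 0.104; edgeR adjusted p = 2.39e-11). KDM1A lies on the plus strand of chromosome 1 (23019443 to 23083689) and KDM1B on the plus strand of chromosome 6 (18155329 to 18223853). The JmjC enzymes KDM5A, KDM5B and KDM5C, which remove H3K4me3, did not pass (log2 fold changes -0.16, -0.01 and 0.12). Their signs depended on the setting. Scaled by library totals alone, KDM5A (-0.37, edgeR adjusted p = 0.00123) and KDM5B (-0.22, 0.0153) were called lower. Under upper-quartile factors KDM5A was again lower (-0.27, edgeR adjusted p = 0.0148). After removal of the length trend KDM5B (0.20, edgeR adjusted p = 0.027) and KDM5C (0.26, 0.00911) were called higher. Over the alternatives the adjusted p ran up to 0.801 for KDM5A, 0.986 for KDM5B and 0.913 for KDM5C.

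Among 7 genes grouped as H3K4 methyltransferases, 3 rose, 1 fell and 3 did not pass (57.1% called, median log2 fold change 0.03). KMT2E is counted in this class, although its own methyltransferase activity is not established. KMT2C (MLL3), which places H3K4me1 at enhancers, had 146, 135 and 169 CPM in control and 110, 94.1 and 108 CPM in shPHF19 libraries. All 3 shPHF19 values were lower than the controls (log2 fold change -0.53, SE 0.0911; edgeR adjusted p = 2.05e-06). Parts of KMT2C are duplicated elsewhere in the genome, so its counts are uncertain where reads fit both copies. KMT2D (MLL2 or MLL4), its paralog with the same role, had 298, 346 and 406 CPM in control and 528, 459 and 406 CPM in shPHF19 libraries. Control replicate 3 and shPHF19 replicate 3 met at the same rounded value, and the gene was called higher (0.41, SE 0.0927; edgeR adjusted p = 0.000186). On library totals alone that call was lost (0.20, edgeR adjusted p = 0.0637, in a range from 1.36e-07).

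Enzymes that write H3K4me3 at promoters include SETD1A and KMT2B. SETD1A had 52.8 ± 5.34 CPM in control and 68.2 ± 7.25 CPM in shPHF19 libraries (SD, n = 3; log2 fold change 0.37, SE 0.102; edgeR adjusted p = 0.00174), and its call was lost on library totals alone (0.16, edgeR adjusted p = 0.167, in a range from 9.16e-05). KMT2B had 86.5 ± 5.72 and 106 ± 16.9 CPM (SD, n = 3; 0.29, SE 0.0966; edgeR adjusted p = 0.00926). Its rise rested on shPHF19 replicate 1, at 125 CPM against 98.4 and 93.4 CPM in the others, and was lost without it (0.16, edgeR adjusted p = 0.156). It was also lost on library totals alone (0.08, edgeR adjusted p = 0.486) and under upper-quartile factors (0.18, 0.0937), in a range from 0.000191. KMT2A (MLL1), KMT2E and SETD1B did not pass (log2 fold changes -0.11, -0.08 and 0.03), and their groups overlapped. KMT2A and KMT2E were lower on library totals alone (-0.32, edgeR adjusted p = 0.00251, and -0.29, 0.00555), KMT2A also under upper-quartile factors (-0.21, 0.0336), and their adjusted p ran up to 0.928 and 0.818 over the alternatives.

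Of 5 H3K36 methyltransferases, 3 fell, 1 rose and 1 did not pass (80.0% called, median log2 fold change -0.29). SETD2, which places H3K36me3 along transcribed genes, had 170, 150 and 174 CPM in control and 112, 120 and 122 CPM in shPHF19 libraries. No shPHF19 value reached the controls (log2 fold change -0.48, SE 0.086; edgeR adjusted p = 5.46e-06). WHSC1L1 (NSD3), an H3K36 dimethyltransferase, had 83.4, 72.7 and 85.5 CPM in control and 59.2, 56.4 and 58.9 CPM in shPHF19 libraries, and it too was lower without overlap (-0.47, SE 0.096; edgeR adjusted p = 4.1e-05). Its paralog WHSC1 (NSD2) was the gene of the 5 that rose, with 331, 335 and 369 CPM in control and 447, 411 and 410 CPM in shPHF19 libraries (0.29, SE 0.081; edgeR adjusted p = 0.00173). On library totals alone WHSC1 was not called (0.09, edgeR adjusted p = 0.345, in a range from 7.82e-07). NSD1, the third paralog, had 129 ± 14.9 and 106 ± 2.36 CPM (SD, n = 3; -0.29, SE 0.0894; edgeR adjusted p = 0.00438). Its call was lost without control replicate 3 (-0.20, edgeR adjusted p = 0.102) and with the length trend removed (-0.08, 0.406), in a range from 1.26e-05 over the alternatives. ASH1L, another H3K36 enzyme, had 57.1 ± 4.36 and 59.4 ± 3.99 CPM (SD, n = 3; 0.06, SE 0.0999) and was called with the length trend removed (0.26, edgeR adjusted p = 0.0159).

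Of the H3K36 demethylases, KDM2B rose and KDM2A and KDM8 did not pass (33.3% called, beside 60.2% of all genes tested). KDM2B, which also brings a form of PRC1 to CpG islands, had 135, 141 and 141 CPM in control and 191, 169 and 166 CPM in shPHF19 libraries (log2 fold change 0.33, SE 0.0844; edgeR adjusted p = 0.000691). The values did not overlap, but on library totals alone the gene was not called (0.13, edgeR adjusted p = 0.178, in a range from 9.47e-06). KDM2A, its paralog, had 307, 318 and 334 CPM in control and 366, 365 and 347 CPM in shPHF19 libraries, also without overlap (0.17, SE 0.08; edgeR adjusted p = 0.0644). KDM2A was called with the DESeq2 Wald test (0.19, adjusted p = 0.0143) and in 3 edgeR alternatives, in a range of 0.000394 to 0.688. KDM8 stood at 3.79 ± 0.773 and 5.14 ± 1.13 CPM (SD, n = 3), and did not pass (0.44, SE 0.248), and was called in 1 alternative, the one without shPHF19 replicate 3 (0.62, edgeR adjusted p = 0.0383, in a range up to 0.423).

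DOT1L, the H3K79 methyltransferase and a cofactor of KMT2A fusions, rose. It had 153, 165 and 175 CPM in control and 322, 282 and 255 CPM in shPHF19 libraries. The lowest shPHF19 value was well above the highest control value (1.74-fold higher, log2 fold change 0.80, SE 0.0871; edgeR adjusted p = 5.37e-11). The gene lies on the plus strand of chromosome 19 (2164149 to 2232578), and 7.1% of its exonic bases overlap exons of PLEKHJ1 on the other strand. PLEKHJ1 held 4419 counts over the 6 libraries against 20384 for DOT1L.

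Of 3 H4K20 methyltransferases, 1 fell and 2 did not pass (33.3% called, median log2 fold change -0.16). SUV420H1 (KMT5B), which places H4K20me2 and H4K20me3, had 61.6, 47.8 and 51.5 CPM in control and 29.2, 32.8 and 38.0 CPM in shPHF19 libraries. The groups were apart (1.61-fold lower, log2 fold change -0.69, SE 0.114; edgeR adjusted p = 1.21e-06). Its paralog SUV420H2 (KMT5C) had 20.3 ± 1.93 and 21.5 ± 1.71 CPM (SD, n = 3; 0.08, SE 0.134), with overlapping groups. SETD8 (KMT5A), which places H4K20me1, had 107, 96.8 and 95.3 CPM in control and 86.1, 93.9 and 86.9 CPM in shPHF19 libraries. Its values did not overlap but it did not pass (-0.16, SE 0.0896; edgeR adjusted p = 0.112). It was called on library totals alone (-0.37, edgeR adjusted p = 0.000487) and in 2 other alternatives, with adjusted p up to 0.342.

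Of 7 tested arginine methyltransferases, 4 rose and 3 did not pass (57.1% called, median log2 fold change 0.49). The 2 largest rises of the 51 were in this class. PRMT1, the main enzyme of asymmetric arginine dimethylation, had 149, 165 and 157 CPM in control and 392, 369 and 329 CPM in shPHF19 libraries. The lowest shPHF19 value was far above the highest control value (2.32-fold higher, log2 fold change 1.21, SE 0.0848; edgeR adjusted p = 4.63e-17). PRMT5, the main enzyme of symmetric dimethylation, had 46.1, 58.8 and 54.2 CPM in control and 142, 128 and 110 CPM in shPHF19 libraries, a 2.39-fold rise without overlap (1.26, SE 0.0998; edgeR adjusted p = 3.53e-15). PRMT5 shares 34.8% of its exonic bases with PRMT5-AS1 on the other strand, which held 29 counts over the 6 libraries against 8065 for PRMT5. PRMT1 lies on the plus strand of chromosome 19 (49675786 to 49689029) and PRMT5 on the minus strand of chromosome 14 (22920511 to 22929585).

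PRMT7, which monomethylates arginine, had 19.4, 22.3 and 16.9 CPM in control and 42.2, 39.2 and 33.7 CPM in shPHF19 libraries. These groups were separate as well (1.96-fold higher, log2 fold change 0.97, SE 0.126; edgeR adjusted p = 5.08e-09). PRMT3, which is cytosolic and methylates a ribosomal protein, rose from 30.2 ± 2.98 to 42.4 ± 5.27 CPM (SD, n = 3; 0.49, SE 0.116; edgeR adjusted p = 0.000315). PRMT6 (0.19), PRMT2 (-0.02) and PRMT9 (-0.16) did not pass, and their groups overlapped. PRMT2 was called lower on library totals alone (-0.22, edgeR adjusted p = 0.039, in a range up to 0.996).

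Among the remaining SET domain proteins, 6 genes without an assigned histone residue here, 2 rose, 1 fell and 3 did not pass (median log2 fold change 0.15). SETD7, which methylates many non-histone proteins, had 196, 183 and 198 CPM in control and 133, 136 and 136 CPM in shPHF19 libraries, with a gap between the groups (log2 fold change -0.51, SE 0.0828; edgeR adjusted p = 7.3e-07). SETD4 had 9.47, 10.5 and 12.6 CPM in control and 14.6, 15.3 and 15.1 CPM in shPHF19 libraries (0.47, SE 0.158; edgeR adjusted p = 0.00977). SETD3, the actin histidine methyltransferase, had 109 ± 9.74 and 130 ± 5.59 CPM (SD, n = 3; 0.25, SE 0.0879; edgeR adjusted p = 0.0125). Neither rise held throughout. SETD4 lost its call without control replicate 1 (0.38, edgeR adjusted p = 0.0584) and on library totals alone (0.26, 0.149), in a range from 0.00345. SETD3 lost its call without control replicate 3 (0.19, edgeR adjusted p = 0.115), without shPHF19 replicate 2 (0.23, 0.0692), under upper-quartile factors (0.15, 0.139) and on library totals alone (0.05, 0.663), in a range from 0.00102. SETD5, SETD6 and SETD9 did not pass (log2 fold changes 0.16, 0.01 and 0.15). SETD5 was called with the length trend removed (0.31, edgeR adjusted p = 0.00202) and without control replicate 3 (0.24, 0.0407), in a range up to 0.641. SETD6 shares 29.9% of its exonic bases with CNOT1 on the other strand, which had 38822 counts over the 6 libraries against 1207 for SETD6.

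Levels of different genes can be compared only per exonic length, here as mean CPM per kb of exon (SD, n = 3). The length joins all annotated exons of a gene, so it can exceed that of the transcript expressed. The SDs cover the spread of the libraries and not this uncertainty, so the orders below depend on the annotation. PRMT1 was the highest of all 51 genes in both groups, at 82.2 ± 4.19 in control and 190 ± 16.8 in shPHF19 libraries, ahead of PRMT5 among its class at 20.3 ± 2.46 and 48.4 ± 5.99. PRMT2 (13.2 ± 0.462) lay above PRMT3 (11.4 ± 1.12) in control, and PRMT3 (16.0 ± 1.99) above PRMT2 (13.0 ± 0.561) in shPHF19 libraries, in both cases by more than their SDs together. KDM6B (14.4 ± 1.64) lay above KDM6A (9.76 ± 1.06) in control by more than their SDs. In shPHF19 libraries KDM6A (6.12 ± 0.904) and KDM6B (5.32 ± 0.222) were within their SDs of each other.

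Among H3K4 demethylases KDM1A (32.8 ± 1.64) and KDM5C (32.3 ± 2.33) were within their SDs in control, whereas in shPHF19 libraries KDM1A led at 54.6 ± 0.482 against 34.9 ± 2.63 for KDM5C. KDM1B and KDM5B were within their SDs in control (15.3 ± 1.55 and 14.2 ± 0.464), and KDM1B was below KDM5B in shPHF19 libraries (7.70 ± 0.332 and 14.1 ± 0.335). KDM3A was the highest H3K9 demethylase in control at 45.0 ± 3.08, and in shPHF19 libraries it was within its SD of KDM4B (28.1 ± 1.82 and 26.6 ± 1.69). Among H3K36 methyltransferases SETD2 and WHSC1 (19.5 ± 1.16) were within their SDs of each other in control, and WHSC1 was higher in shPHF19 libraries (23.9 ± 1.19 against 14.4 ± 0.638). KMT2D was the highest H3K4 methyltransferase in both groups (18.0 ± 2.77 and 23.9 ± 3.13), and KMT2C went from within its SD of SETD1A in control (8.91 ± 1.04 and 8.18 ± 0.828) to the lowest place in shPHF19 libraries (6.16 ± 0.508).

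**Figure D3:**
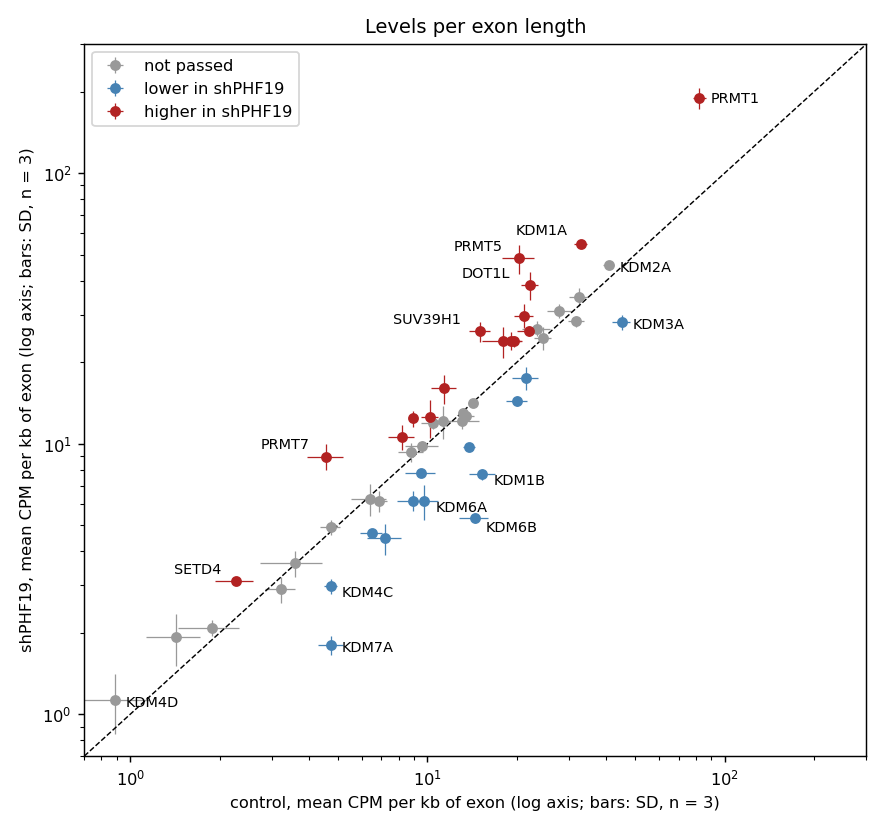
Mean CPM per kb of exon in control (x axis) and shPHF19 libraries (y axis), both on log scales, for the 51 tested genes, with SD bars (n = 3) and a dashed line of equality. PRMT1 stands at the upper end at 82.2 and 190, and KDM6B and KDM7A lie furthest below the line.

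The exons of these genes are long, with a median of 6.71 kb against 3.61 kb over all tested genes with an annotation. Across the 51 genes the log2 fold change was lower for longer genes (Spearman's rho -0.35, Pearson's r -0.36 with log2 length), and across 12603 genes the relation was in the same direction (-0.17 and -0.14). Points in these correlations share the 6 libraries and are not independent replicates, so no p is given. Of the 8 genes under 3 kb 3 rose (37.5%) and the others did not pass, while 36.2% of all tested genes of that length rose and 23.1% fell. Of 15 genes of 3 to 6 kb 6 rose and 4 fell, while 28.6% of all such genes rose and 33.5% fell. Of 28 genes over 6 kb 7 rose and 9 fell, while 20.4% of all such genes rose and 41.2% fell. Both directions were present among the longest genes, with KMT2D (19.4 kb) and WHSC1 (17.7 kb) higher and KMT2C (16.9 kb) lower. With the length trend removed KMT2D, WHSC1 and KMT2C kept their calls.

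**Figure D4:**
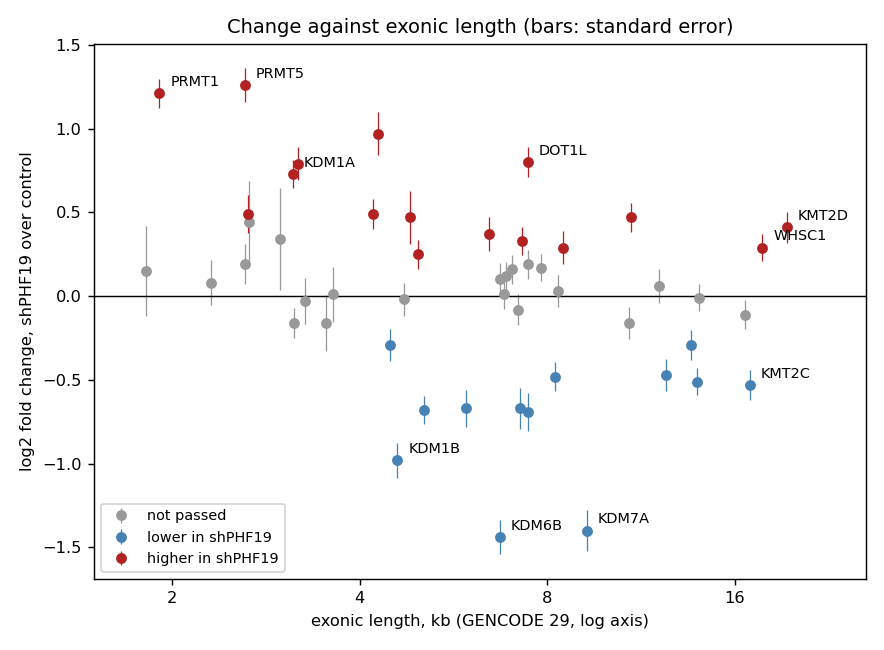
Log2 fold change (y axis; bars are standard errors) against exonic length in kb (x axis, log scale) for the 51 tested genes. PRMT1 and PRMT5 are short and high at 1.21 and 1.26, whereas KMT2D and KMT2C are long and lie on either side of 0.

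Genes related to these enzymes were listed by function: complex subunits and partners, S-adenosylmethionine supply, and further methyltransferases and JmjC proteins that the symbol rule does not cover. Of these 38 genes, all tested, 20 rose, 6 fell and 12 did not pass. That is 68.4% called, with 52.6% higher and 15.8% lower, beside 60.2% of all genes tested, with 29.4% higher and 30.9% lower. Their median log2 fold change was 0.30, beside -0.03 over all genes tested. On library totals alone 12 of the 38 were lower, and under upper-quartile factors 11. Among 12 subunits of the KMT2 and SETD1 complexes, 6 rose, 2 fell and 4 did not pass (66.7% called). The subunits that rose included PAXIP1 (25.4 ± 0.0293 to 52.9 ± 3.52 CPM, log2 fold change 1.06), CXXC1 (57.0 ± 2.04 to 100 ± 8.25 CPM, 0.81), which brings SETD1 to CpG islands, HCFC1 (208 ± 23.5 to 341 ± 32.6 CPM, 0.72) and PAGR1 (40.2 ± 5.39 to 69.5 ± 2.15 CPM, 0.79; SD, n = 3). PSIP1 (-0.68) and NCOA6 (-0.37) fell, and both were picked for naming with their values in view. NCOA6 lost its call with the length trend removed (-0.19, edgeR adjusted p = 0.0711, in a range from 1.54e-06).

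On the list of CARM1 and the partners of PRMT5, 4 of 5 genes rose and 1, CLNS1A, did not pass. That is 80.0% called, beside 60.2% of all genes tested. CLNS1A, a subunit that brings substrates to PRMT5, had 238, 219 and 210 CPM in control and 187, 207 and 207 CPM in shPHF19 libraries, lower without overlap (-0.15, edgeR adjusted p = 0.11). It was called lower on library totals alone (-0.36, edgeR adjusted p = 0.000304), under upper-quartile factors (-0.25, 0.00722) and after removal of the length trend (-0.19, 0.0426), in a range up to 0.34. WDR77 (MEP50), the obligate partner of PRMT5, went from 32.8 ± 1.80 to 81.4 ± 10.1 CPM (SD, n = 3; log2 fold change 1.31, SE 0.105; edgeR adjusted p = 4.48e-15). CARM1 (PRMT4), an arginine methyltransferase that the symbol rule does not cover, went from 55.5 ± 7.58 to 105 ± 11.6 CPM (0.92, SE 0.101; edgeR adjusted p = 6.31e-11). COPRS (0.48) and RIOK1 (0.35), adaptors of PRMT5, also rose, and RIOK1 was not called on library totals alone (0.14, edgeR adjusted p = 0.248, in a range from 0.000911). Of 5 genes of S-adenosylmethionine supply and turnover, 4 rose: MTHFD1 (114 ± 8.47 to 216 ± 5.20 CPM, 0.93), MAT2A, which makes S-adenosylmethionine (316 ± 14.4 to 582 ± 15.0 CPM, 0.88), AHCY, which clears its product (200 ± 15.4 to 351 ± 29.9 CPM, 0.81), and MAT2B (0.34; SD, n = 3). MTR did not pass (0.03), so that 80.0% of this list were called. MAT2B was not called on library totals alone (0.14, edgeR adjusted p = 0.178, in a range from 8.93e-05).

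Of 10 other lysine methyltransferases, 5 rose, 1 fell and 4 did not pass (60.0% called, beside 60.2% of all genes tested). SMYD5 (0.93) and EZH2 (0.52) were among those that rose, and EZH1 (-0.51) fell. Of 6 other JmjC proteins, 3 fell, 1 rose and 2 did not pass (66.7% called). The hairless gene HR had 4.80, 5.36 and 7.26 CPM in control and 0.891, 0.389 and 0.689 CPM in shPHF19 libraries (log2 fold change -3.15, SE 0.346; edgeR adjusted p = 6.64e-11), with 12, 6 and 10 counts in the latter. JMJD1C, a relative of KDM3A, went from 111 ± 10.8 to 67.4 ± 5.69 CPM (-0.72) and PHF2 from 107 ± 2.14 to 78.4 ± 1.77 CPM (-0.44), while C14orf169 (RIOX1) went from 15.1 ± 3.24 to 33.5 ± 2.41 CPM (1.15; SD, n = 3).

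The authors' deposited table, which holds 5740 genes with adjusted p up to 0.00993 and absolute log2 fold changes from 0.322, includes 23 of the 55 genes, 12 higher and 11 lower. All 23 were called in the same direction by edgeR here, and the log2 fold changes in the authors' deposited table differed from those of edgeR by at most 0.045. The other 6 called genes are KDM4A, NSD1, KMT2B, WHSC1, SETD3 and SETD4, which lay between -0.29 and 0.47 on the log2 scale here.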

How the data were processed

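RNA-seq libraries from total RNA of Kasumi-1 cells were compared as 3 control and 3 shPHF19 samples, grouped by the labels' titles. The authors deposited raw read counts per gene. The submitters' processing notes name HISAT2 2.1.0, HTSeq 0.11.2 and hg38, with annotation release and strand setting not given in the sources used here. Genes whose exons overlap those of another gene on the other strand could therefore share or lose reads. Beside those named above, such genes include KDM2B (6.0% of exonic bases, with RNF34) and PRMT7 (5.3%, with SMPD3). A second table deposited by the authors lists, for genes that passed their thresholds, a mean normalized signal (baseMean), a log2 fold change with its standard error, and p-values with adjusted p-values, per the file headers.

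Counts were tested with edgeR 4.0.16 (R 4.3.3; filterByExpr, TMM, robust quasi-likelihood test, Benjamini-Hochberg adjustment over all 13014 genes tested, threshold 0.05). The libraries held 14229878 to 16615143 counts, so that 3 counts correspond to 0.177 to 0.223 CPM. Replicates of a group differed by more than counting error (chi-square over degrees of freedom 4.78 to 12.4). On simulated counts with 13014 genes, all 100 genes changed 2-fold and 82 of 100 changed 1.41-fold were called, with 5 false calls among 187. The simulation changed only 200 genes, drawn from those with higher counts, and gave all genes a single dispersion. In the libraries 60.2% of the genes tested were called, so these rates do not carry over to them. Exonic lengths came from GENCODE 29 (96.8% of tested genes matched) and promoter windows from RefSeq (GRCh38.p14).

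Values per library are given for genes called with an absolute log2 fold change of at least 0.8, for the 2 smallest adjusted p of each class and for paralogs that moved in opposite directions. Up to 4 genes per list of related genes, those with the smallest adjusted p, are named, mostly with group means. Other genes are given where a call changed with the processing or a list held few that fell or did not pass, chosen with their values in view. The genes and lists were chosen with earlier results of these data known. The alternatives were other scalings and filters, DESeq2 1.42.0, limma 3.58.1 (voom), a replicate block, removal of the trend on gene length, and leaving out each library in turn.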

Additional observations from a re-analysis of the deposited data

How the results depend on the processing

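Of the 51 tested genes 8 were called in none of the 15 alternatives or the reported fit, and 20 of the 29 called genes kept call and direction throughout. Scaling by library totals gave 9 genes higher and 20 lower, against 16 and 13 as reported, and 12 of the 38 related genes lower against 6, with 11 lower under upper-quartile factors. The share of higher genes among those called was 55.2% as reported and 31.0% on library totals, and over all genes tested 48.8% and 31.5%. KDM3B reversed to -0.20 on library totals and KDM5B to 0.20 with the length trend removed, and the cause was not tested. Leaving out 1 library gave 15 to 19 higher and 11 to 13 lower genes. With the replicate block 16 genes were higher and 13 lower, as reported, and 19 of the related genes were higher, SMYD3 losing its call (0.25, edgeR adjusted p = 0.0637). Deviations from the group mean had correlations of -0.521, -0.063 and -0.139 between same-numbered libraries over 9559 genes. Differently numbered libraries reached 0.504 (control 1 with shPHF19 3), 0.443 (control 2 with shPHF19 1) and -0.424 (control 2 with shPHF19 3). Deviations within groups of 3 depend on one another, so these values cannot decide whether the numbers mark a shared batch. Depth limits KDM4D, SETD9 and KDM8 most, with 274, 332 and 407 counts over the 6 libraries.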
